A study of Mus musculus with 12 samples.

Results

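The genes described here were 10 genes of extracellular nucleotide and adenosine signalling, followed in mouse bone marrow neutrophils and bone marrow monocyte-derived macrophages that had been treated with calcitonin gene-related peptide (CGRP) or with saline (PBS). They comprised 5 G protein-coupled nucleotide receptor genes (*P2ry1*, *P2ry2*, *P2ry6*, *P2ry13* and *P2ry14*), 2 ATP-gated ion channel genes (*P2rx4* and *P2rx7*), 2 adenosine receptor genes (*Adora2a* and *Adora2b*) and *Entpd1*, which encodes the ectonucleotidase CD39. The genes were chosen by symbol, with earlier results of these data known, and each was found among the 52636 genes that both count tables listed.

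Damaged and activated cells release ATP and other nucleotides, which neighbouring leukocytes sense through P2Y receptors, which couple to G proteins, and through P2X receptors, which are cation channels opened by ATP. At the cell surface CD39 removes phosphates from ATP and ADP, CD73 (encoded by *Nt5e*) turns the resulting AMP into adenosine, and adenosine then acts on its own receptors, of which those encoded by *Adora2a* and *Adora2b* raise cyclic AMP. In neutrophils and macrophages nucleotide receptors are known for guiding migration and for activating the inflammasome, and adenosine receptors for restraining inflammatory activity. CGRP is a neuropeptide of sensory nerve endings, and its receptor also raises cyclic AMP.

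Bone marrow was taken from C57BL/6J mice 8 to 12 weeks of age. In the groups Neu_PBS and Neu_CGRP, freshly enriched neutrophils were kept for 4 h with PBS or with 1 nM CGRP. In the groups Mac_PBS and Mac_CGRP, enriched monocytes spent 3 days in culture with the growth factor M-CSF at 10 ng/ml and then received PBS or 1 nM CGRP for 4 h (the labels call these cells monocytes/macrophages, and they are called macrophages here). Each of the 4 groups held 3 libraries, 12 in all, and since the labels do not say whether replicates came from separate mice, the p-values below measure the spread between these libraries, which may be technical.

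The neutrophil libraries held 2196558 to 3631989 counts of molecules and the macrophage libraries 2002559 to 3477069. Levels are given as CPM, the count of a gene relative to the total count of its library, scaled over the 12 libraries together by the trimmed mean of M values (TMM), and 3 counts, below which a gene was hardly measured, corresponded to 0.861 to 1.51 CPM on this scale. The method counts molecules near the 3′ end of each transcript, so the levels of the 10 genes were not ranked against each other. The marker sums that follow add up these CPM over the genes of a list. Fold changes with CGRP on the log2 scale (log2 change), their standard errors (SE) and p-values came from limma-voom fitted to the 6 libraries of a cell type over all genes that passed its filter on low counts, with Benjamini-Hochberg adjustment, and a gene was called where the adjusted p was under 0.05.

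Both labelled cell types carried their defining markers. The summed level of 10 neutrophil markers was 156100 to 234600 CPM in the neutrophil libraries, with the largest share from *S100a8*. In macrophages it was 300.9 to 393.8 CPM with PBS and 414.6 to 442.5 CPM with CGRP, so these groups did not overlap. The summed level of 10 monocyte and macrophage markers in macrophages was 9167 to 9603 CPM with PBS and 9719 to 11240 CPM with CGRP. These groups did not overlap either, and the largest shares came from *C1qb* and *Cd68*. The same held for 5 B cell markers, at 31.28 to 33.56 CPM with PBS and 37.61 to 40.64 CPM with CGRP, most of it *Cd79b*. The macrophage sums of the remaining lists overlapped between PBS and CGRP. The neutrophil libraries also held 2797 to 4061 CPM of these monocyte and macrophage markers, most of it *Ly6c2*, together with 5713 to 7334 CPM of 5 erythroid markers, 958.3 to 1175 CPM of 5 mast cell and basophil markers and 536.8 to 665.4 CPM of 4 eosinophil markers. The 9 marker lists held 55 genes, of which 48 were tested in neutrophils and 29 in macrophages. With CGRP 0 of them were called in either cell type by limma-voom, edgeR or DESeq2, and 6 in neutrophils and 5 in macrophages had an unadjusted p under 0.05 in limma-voom, as had 12.8% and 19.8% of all genes tested.

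Among the 10 genes, 3 were called with CGRP in at least one cell type, *P2ry1*, *Adora2b* and *Entpd1*. The 250 bases that precede their annotated transcript starts are shown because the motif bound by the cyclic AMP-responsive factor CREB can be looked for in them. The letters searched were TGACG, the half-site, on both strands, and TGACGTCA, the full site, which contains the half-site on either strand. Of 32851 windows of this length in RefSeq on GRCm38.p6, 17.8% held the half-site and 1.55% the full site. For 8 of the 10 genes RefSeq gave 14 such windows. The half-site was found in 3 windows of 2 genes, *Entpd1* and *P2rx4*, and the full site in 0. Both *Entpd1* windows held 1 half-site each, beginning at positions -135 and -183 from the transcript start and printed in capitals as it reads on the gene's strand, and neither the *P2ry1* nor the *Adora2b* window held one. The windows lie on the plus strand at chr19:40612116-40612365 and chr19:40659520-40659769 for *Entpd1*, chr3:61002535-61002784 for *P2ry1* and chr11:62248734-62248983 for *Adora2b*.
Entpd1 window 1: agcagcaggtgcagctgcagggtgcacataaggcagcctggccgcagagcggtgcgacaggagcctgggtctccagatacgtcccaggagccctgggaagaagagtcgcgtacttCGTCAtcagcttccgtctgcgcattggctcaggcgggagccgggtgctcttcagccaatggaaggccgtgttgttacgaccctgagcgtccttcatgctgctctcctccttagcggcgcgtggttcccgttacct
Entpd1 window 2: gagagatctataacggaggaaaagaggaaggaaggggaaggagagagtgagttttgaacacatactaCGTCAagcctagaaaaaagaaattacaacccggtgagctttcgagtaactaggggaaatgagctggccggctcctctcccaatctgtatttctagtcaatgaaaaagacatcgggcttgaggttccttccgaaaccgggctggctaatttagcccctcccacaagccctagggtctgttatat
P2ry1: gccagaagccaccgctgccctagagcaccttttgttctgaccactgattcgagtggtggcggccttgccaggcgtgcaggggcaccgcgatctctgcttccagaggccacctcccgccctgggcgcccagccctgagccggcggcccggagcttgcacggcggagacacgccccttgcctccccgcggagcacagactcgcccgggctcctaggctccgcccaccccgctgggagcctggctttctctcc
Adora2b: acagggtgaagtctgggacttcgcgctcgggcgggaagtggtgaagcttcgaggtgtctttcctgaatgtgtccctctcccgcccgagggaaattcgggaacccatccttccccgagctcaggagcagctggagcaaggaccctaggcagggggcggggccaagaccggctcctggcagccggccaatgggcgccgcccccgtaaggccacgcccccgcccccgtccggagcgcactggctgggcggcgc

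With CGRP, 3 of the 8 genes tested in macrophages were called, *P2ry1* lower and *Adora2b* and *Entpd1* higher, where 7.43% of the 9393 genes tested in macrophages were called, 3.46% higher and 3.97% lower. Of these genes, *P2ry1* passed the macrophage filter only through its PBS libraries. In neutrophils 1 of the 8 genes tested was called, *Entpd1*, which was higher, where 2.53% of 9819 genes were called and 1.51% were higher. Without adjustment, p was under 0.05 for 5 of the 8 genes in macrophages, where it was for 19.8% of all genes tested, and for 2 of the 8 in neutrophils, where it was for 12.8%. *Adora2a* was below the filter in both cell types, *P2ry13* in macrophages and *P2ry14* in neutrophils. The median log2 change of the tested genes was 0.08 in macrophages and 0.18 in neutrophils, against 0.0046 and 0.0008 over all genes tested.

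**Figure D1:**
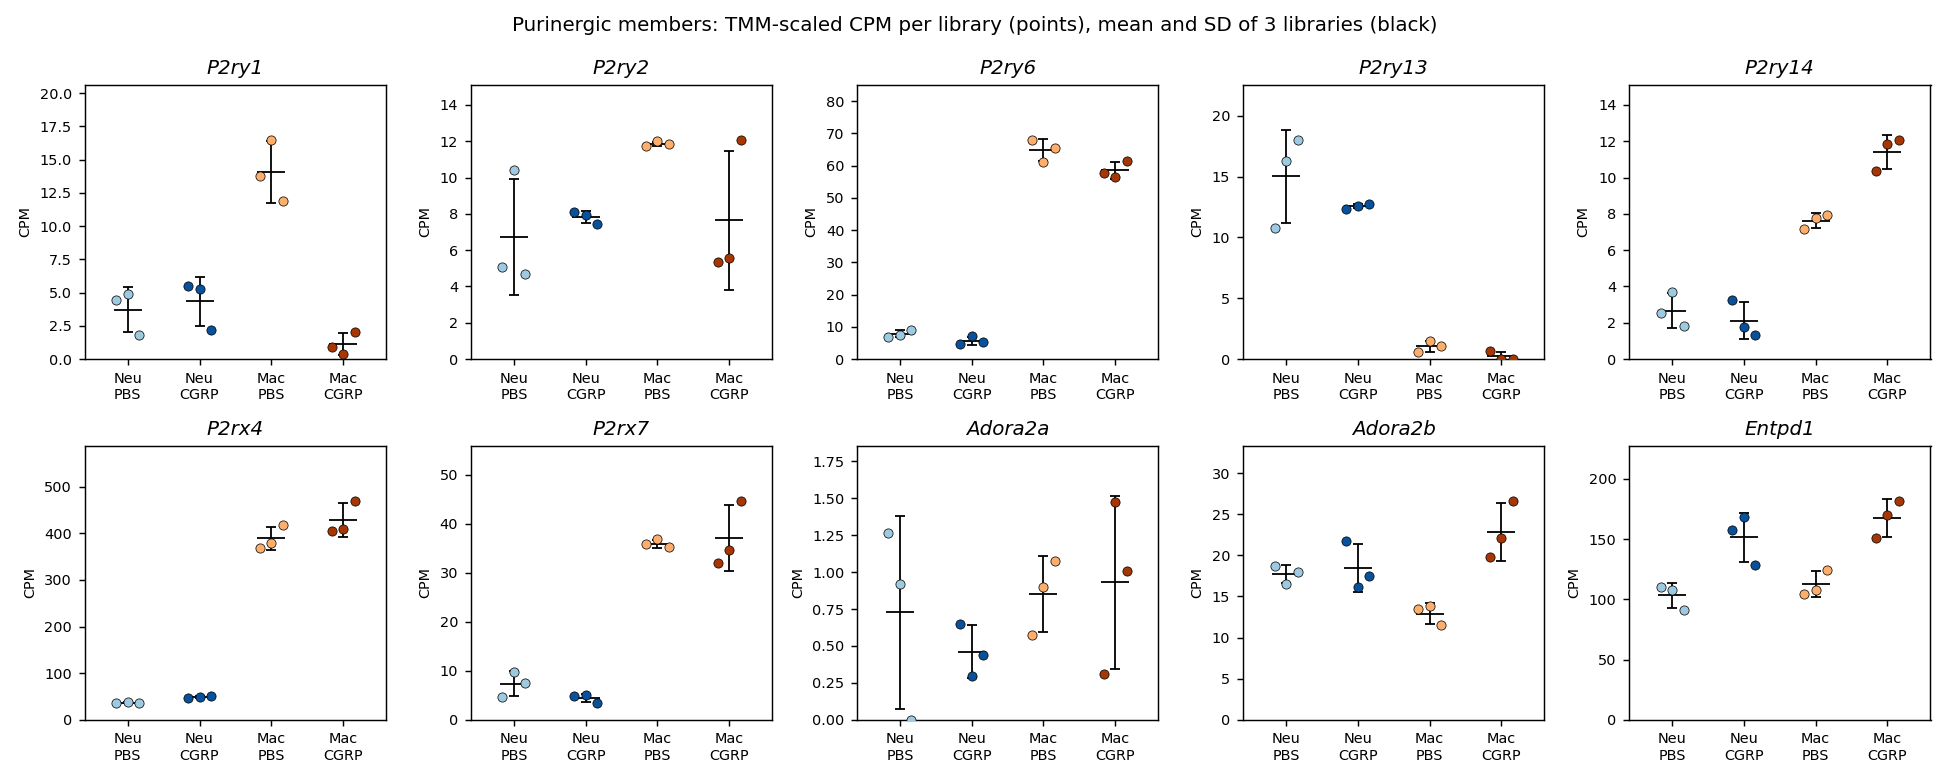
Level of each of the 10 genes in every library, as TMM-scaled CPM on a linear axis from 0 that differs between panels, with points for libraries and black bars for the mean and SD of the 3 libraries of a group. The *P2ry1* points fall to between 0.369 and 2.01 CPM in Mac_CGRP from between 11.9 and 16.5 CPM in Mac_PBS, and the *Entpd1* points of both CGRP groups lie above those of both PBS groups.

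*P2ry1* encodes an ADP receptor that acts through phospholipase C, and it lies at chr3:61002795-61008982 on the plus strand of GRCm38. In macrophages its counts were 48, 55 and 33 in the PBS libraries and 3, 1 and 4 in the CGRP libraries. Every CGRP library was thus far below every PBS library, and the groups did not overlap, as for 24.1% of the genes tested in macrophages. The level fell from 14.04 ± 2.32 CPM to 1.11 ± 0.834 CPM (mean ± SD, n = 3 libraries each), a log2 change of -3.67 (SE 0.51, limma-voom adjusted p = 1.94e-04) or 12.7-fold, with a 95% interval of -4.75 to -2.59 on the log2 scale. From the summed counts, 136 with PBS and 8 with CGRP, the level was 14.4-fold higher with PBS, with an exact 95% interval of 7.1 to 34.0 that covers counting error only. The CGRP counts lay at or near 3, below which a gene was hardly measured, so the size of the fall is uncertain. *P2ry1* passed the macrophage filter only through its PBS libraries. In bulk libraries such as these, fewer cells with a transcript and less transcript per cell cannot be told apart.

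In neutrophils the *P2ry1* counts were 14, 16 and 5 with PBS and 17, 18 and 5 with CGRP, so the groups overlapped throughout. The log2 change there was 0.29 (SE 0.44, adjusted p = 0.855), with a 95% interval of -0.63 to 1.20. The effect of CGRP in macrophages minus that in neutrophils was -4.00 on the log2 scale (SE 0.72, limma-voom over 12 libraries, adjusted p = 1.80e-03). Of the 7 genes of the group that passed the filter in both cell types, *P2ry1* was the 1 called for this difference, where 2.71% of 8635 such genes were called and 1.29% had the lower effect in macrophages. In macrophages *P2ry1* passed the filter only through its PBS libraries, so this count of calls is given as a description.

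*P2ry1* is also known from platelets, where it drives shape change. The summed level of 6 platelet and megakaryocyte markers was 633.8, 977.9 and 679.6 CPM in the 3 Mac_PBS libraries and 962.1, 782.8 and 631.4 CPM in the 3 Mac_CGRP libraries, and 4, 4 and 4 and then 5, 5 and 3 of the 6 markers were detected. Nearly all of it was *Pf4*, at a mean of 759 CPM with PBS and 785 CPM with CGRP. Of the other 5 markers, summed over the 3 libraries of a group, *Ppbp* had 26 counts with PBS and 42 with CGRP, *Treml1* 9 and 5, *Itga2b* 6 and 4, *Gp9* 0 and 2, and *Gp1bb* 0 and 3. Of the 2 markers that passed the filter in macrophages, 0 were called by limma-voom, edgeR or DESeq2, and 0 had an unadjusted p under 0.05 in limma-voom. The part of platelets in the *P2ry1* result was not tested.

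*P2ry2*, at chr7:100996568-101012866 on the minus strand, encodes a receptor for ATP and UTP known for guiding leukocyte migration. In macrophages its counts were 41, 40 and 33 with PBS and 17, 15 and 24 with CGRP. At the level of CPM, 2 of the CGRP libraries, at 5.33 and 5.54, lay below the PBS libraries, which were at 11.9 ± 0.112 (mean ± SD, n = 3), and the third, at 12.1, lay above them. The log2 change was -0.80 (SE 0.31) with an unadjusted p of 0.0205, which did not pass adjustment over all genes (limma-voom adjusted p = 0.150). In neutrophils the level was 6.73 ± 3.22 CPM with PBS and 7.83 ± 0.346 CPM with CGRP, and the log2 change was 0.31 (SE 0.31, adjusted p = 0.764). The difference between these effects was -1.10 on the log2 scale (SE 0.45, adjusted p = 0.265).

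*P2ry6*, at chr7:100937630-100974649 on the minus strand, encodes a UDP receptor known in phagocytosis. Its level in macrophages was 68.0, 61.1 and 65.4 CPM with PBS and 57.7, 56.5 and 61.4 CPM with CGRP. The groups overlapped narrowly, between the lowest PBS and the highest CGRP library, and the log2 change was -0.15 (SE 0.15, adjusted p = 0.640). In neutrophils it was counted 22, 24 and 25 times with PBS and 14, 24 and 12 times with CGRP, a log2 change of -0.43 (SE 0.30, adjusted p = 0.618).

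*P2ry13* and *P2ry14* lie next to each other on chromosome 3, at chr3:59207892-59210882 and chr3:59113855-59153618 on the minus strand. *P2ry13* encodes an ADP receptor that lowers cyclic AMP, and *P2ry14* a receptor for UDP-glucose and related UDP-sugars. *P2ry13* was a gene of the neutrophil libraries, counted 34, 53 and 50 times with PBS and 38, 43 and 29 times with CGRP. These ranges overlapped, and the log2 change was -0.20 (SE 0.23, adjusted p = 0.801). In macrophages *P2ry13* was counted 2, 5 and 3 times with PBS and 2, 0 and 0 times with CGRP, below the filter.

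*P2ry14* was counted 25, 26 and 22 times in the Mac_PBS libraries and 33, 32 and 24 times in the Mac_CGRP libraries. Scaled to depth, the CGRP libraries, at 10.3, 11.8 and 12.1 CPM, lay above the PBS libraries, at 7.17, 7.79 and 7.91 CPM, but 24.1% of the genes tested in macrophages had groups that did not overlap. The log2 change was 0.57 (SE 0.26), with an unadjusted p of 0.0466 and a limma-voom adjusted p of 0.242. In neutrophils *P2ry14* was counted 3 to 12 times per library. Both genes lie opposite *Med12l*, which was counted 11 times at most in a library, and no exon of *Med12l* overlaps an exon of either.

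*P2rx4*, at chr5:122707544-122729738 on the plus strand, encodes an ATP-gated channel that opens at low ATP and sits largely in lysosomes. In neutrophils its level was 36.4, 38.7 and 35.7 CPM with PBS and 46.5, 48.1 and 51.7 CPM with CGRP, so the groups did not overlap, as for 17.8% of the genes tested in neutrophils. The log2 change was 0.41 (SE 0.13) with an unadjusted p of 0.00542, and it did not pass adjustment (limma-voom adjusted p = 0.125). In macrophages the level was 389 ± 25.5 CPM with PBS and 428 ± 36.4 CPM with CGRP, with overlapping libraries and a log2 change of 0.14 (SE 0.13, adjusted p = 0.597). The difference between the effects was -0.26 on the log2 scale (SE 0.17, adjusted p = 0.598). Of the 31-base words in the last 500 bases of *P2rx4* transcripts, 6.6% also occur in other genes, as do 2.8% of those of *P2ry1* and 0% of those of the other 8 genes.

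*P2rx7*, at chr5:122643911-122691432 on the plus strand, encodes the channel that high ATP opens to activate the inflammasome. Its level in macrophages was 36.0 ± 0.819 CPM with PBS and 37.2 ± 6.74 CPM with CGRP. The log2 change was 0.01 (SE 0.18, adjusted p = 0.986), with a 95% interval of -0.36 to 0.39, and its sign turned when TMM scaling was left out. In neutrophils *P2rx7* was counted 15, 32 and 21 times with PBS and 15, 17 and 8 times with CGRP. The groups overlapped there, and the log2 change was -0.62 (SE 0.35, adjusted p = 0.494).

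*Adora2b*, at chr11:62248984-62266453 on the plus strand, encodes the low-affinity adenosine receptor that raises cyclic AMP. In macrophages its counts were 47, 46 and 32 with PBS and 63, 60 and 53 with CGRP. At the level of CPM the PBS libraries were at 13.5, 13.8 and 11.5 and the CGRP libraries at 19.7, 22.2 and 26.7. Each CGRP library was thus above each PBS library, but 24.1% of the genes tested in macrophages had groups that did not overlap. The level rose from 12.9 ± 1.24 CPM to 22.9 ± 3.51 CPM (n = 3 each), a log2 change of 0.78 (SE 0.22, limma-voom adjusted p = 0.0419) or 1.72-fold. This call held in 6 of 10 other ways of fitting the data, and the adjusted p was 0.0611 with DESeq2. It was lost without Mac_PBS replicate 1, 2 or 3 (adjusted p = 0.138, 0.0763 and 0.0893) and without Mac_CGRP replicate 2 or 3 (adjusted p = 0.131 and 0.151).

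In neutrophils *Adora2b* was counted 59, 54 and 50 times with PBS and 67, 55 and 40 times with CGRP. The groups overlapped, with a log2 change of 0.07 (SE 0.19, adjusted p = 0.934) and a 95% interval of -0.33 to 0.46. The effect in macrophages minus that in neutrophils was 0.73 on the log2 scale (SE 0.28), with an unadjusted p of 0.0174 and a limma-voom adjusted p of 0.231, so a difference between the cell types was not shown. *Adora2a*, at chr10:75316877-75334784 on the plus strand, was counted 0 to 4 times in each of the 12 libraries, at or near the limit of detection at this depth.

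*Entpd1*, at chr19:40612366-40741602 on the plus strand, was the gene of the group called with CGRP in both cell types. In neutrophils its level was 111, 108 and 91.2 CPM with PBS and 158, 168 and 129 CPM with CGRP. In macrophages it was 105, 108 and 125 CPM with PBS and 151, 170 and 182 CPM with CGRP. In each cell type the lowest CGRP library was above the highest PBS library. Groups did not overlap for 17.8% of all genes tested in neutrophils and 24.1% in macrophages. The level rose from 103 ± 10.6 CPM to 152 ± 20.3 CPM in neutrophils (n = 3 each), a log2 change of 0.57 (SE 0.11, limma-voom adjusted p = 4.20e-03) or 1.49-fold. In macrophages it rose from 112 ± 10.8 CPM to 168 ± 15.7 CPM (n = 3 each), a log2 change of 0.58 (SE 0.14, limma-voom adjusted p = 0.0152) or 1.49-fold.

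The difference between the 2 *Entpd1* effects was 0.02 on the log2 scale (SE 0.18, adjusted p = 0.980), with a 95% interval of -0.35 to 0.39. The neutrophil call held in 10 of 10 other ways of fitting and without any 1 library. The macrophage call held in 10 of 10 other ways of fitting but was lost without Mac_PBS replicate 1 (adjusted p = 0.115) and without Mac_CGRP replicate 2 or 3 (adjusted p = 0.0860 and 0.0804).

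**Figure D2:**
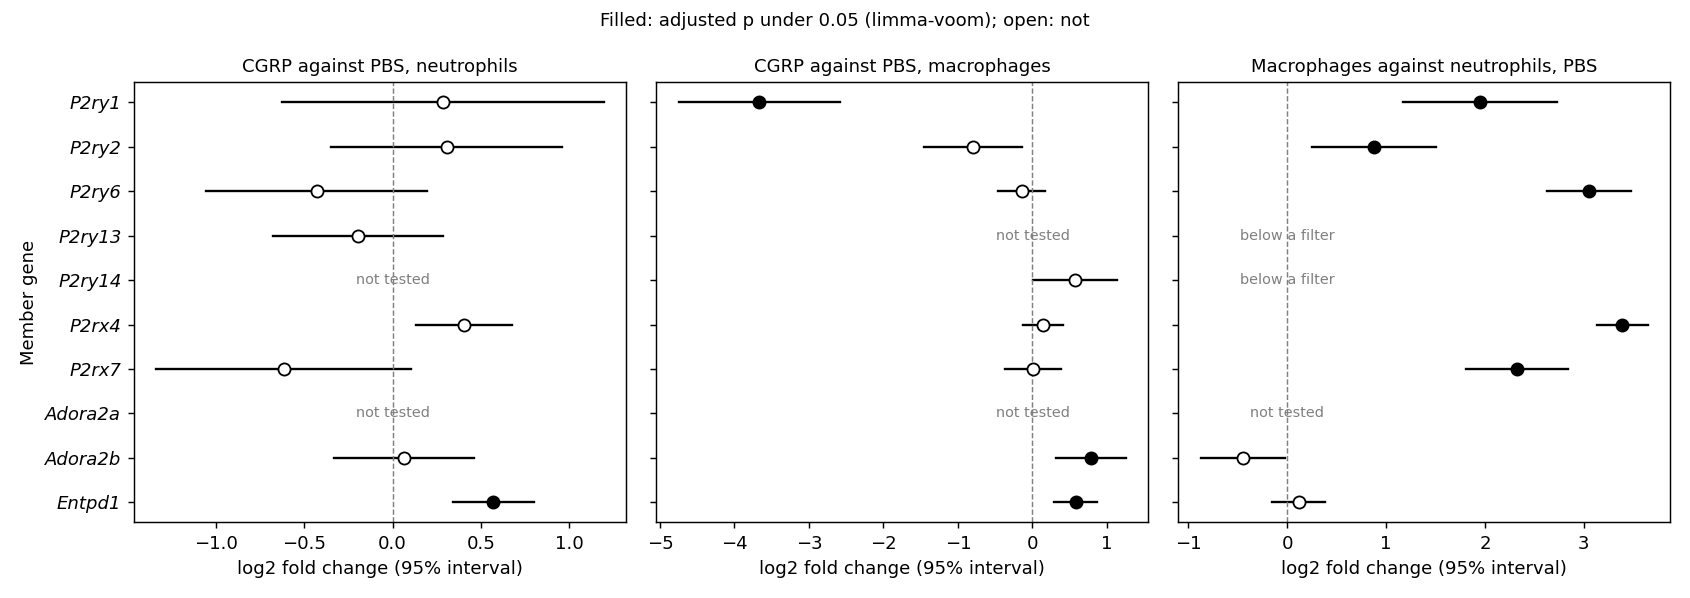
Log2 fold change of each of the 10 genes with its 95% interval, for CGRP against PBS in neutrophils, CGRP against PBS in macrophages, and macrophages against neutrophils with PBS; the horizontal axes differ, filled points had a limma-voom adjusted p under 0.05, genes below the filter are marked as not tested, and in the third panel *P2ry13* and *P2ry14* are marked as below the filter of a cell type. *Entpd1* is filled at 0.57 and 0.58 in the first and second panel, and *P2ry1* at -3.67 in the second, a value that rests on 1 to 4 counts per Mac_CGRP library.

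Macrophages and neutrophils were then compared with PBS alone, to place each gene in its cell type. Cell type, culture and count table cannot be told apart in this comparison, since neutrophils were fresh, macrophages had been cultured for 3 days, and each had its own table. Of the 7 genes that passed the filter in both cell types, 5 were higher in macrophages and 0 in neutrophils, where 65.1% of 8635 such genes were called, 33% higher in macrophages and 32.1% in neutrophils. *P2rx4* was 10.5-fold higher in macrophages (log2 change 3.39, SE 0.13, limma-voom adjusted p = 1.60e-16), at 389 ± 25.5 CPM against 36.9 ± 1.57 CPM. *P2ry6* was 8.28-fold higher there (adjusted p = 8.84e-12), *P2rx7* 5.00-fold (adjusted p = 2.20e-08), *P2ry1* 3.86-fold (adjusted p = 8.03e-05) and *P2ry2* 1.84-fold (adjusted p = 0.0140). The call of *P2ry2* was lost without Neu_PBS replicate 1 (adjusted p = 0.0819) or replicate 3 (adjusted p = 0.0747).

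*P2ry13* and *P2ry14* each passed the filter only in the cell type where their counts were higher, so their difference is given as a description, with no test. The summed counts of *P2ry13* were 137 in Neu_PBS and 10 in Mac_PBS, a ratio of 13.3 relative to the total counts with an exact 95% interval of 7.03 to 28.4 that covers counting error only. Those of *P2ry14* were 73 in Mac_PBS and 25 in Neu_PBS, a ratio of 3.0 with an interval of 1.88 to 4.93 of the same kind. *Adora2b* and *Entpd1* were not called between the cell types. *Adora2b* was at 17.7 ± 1.07 CPM in Neu_PBS and 12.9 ± 1.24 CPM in Mac_PBS (adjusted p = 0.0607), and *Entpd1* at 103 ± 10.6 CPM and 112 ± 10.8 CPM (adjusted p = 0.433).

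Over all 4 groups, the order of the levels differed from gene to gene. For *P2rx4*, both macrophage groups lay above both neutrophil groups, as they did for *P2ry6*, *P2rx7* and *P2ry14*. For *P2ry1*, Mac_PBS was highest and did not overlap Neu_CGRP, the next group, while Neu_CGRP and Neu_PBS overlapped, as did Neu_PBS and Mac_CGRP. For *Entpd1*, the groups with CGRP came first and those with PBS last, the libraries of Mac_CGRP and Neu_CGRP overlapped, and so did those of Mac_PBS and Neu_PBS. For *Adora2b*, Mac_CGRP was highest and Mac_PBS lowest, and the neutrophil groups lay between them.

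The other 9 receptor genes of the family were measured at low levels or not at all. *P2rx1*, which encodes an ATP-gated channel of platelets and neutrophils, was counted 38, 29 and 21 times in the Neu_PBS libraries and 19, 17 and 15 times in the Neu_CGRP libraries. The groups did not overlap, as for 17.8% of the genes tested in neutrophils. The log2 change of -0.67 (SE 0.29) had an unadjusted p of 0.0330 but a limma-voom adjusted p of 0.323. In macrophages *P2rx1* was at 0 counts in all 6 libraries. With PBS its summed counts were thus 88 in neutrophils and 0 in macrophages, and no fold is given. *P2ry12* and *Adora3* were counted 1 to 10 and 0 to 12 times per library, *P2rx3* and *Adora1* 0 to 2 times, *P2rx5* 0 to 2 times and *P2rx6* 0 to 1 times, and *P2ry4* and *P2rx2* were at 0 in the 12 libraries.

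Genes that surround these receptors were taken from 5 further lists of 59 genes in all, 58 of which the tables held, the receptors just named included. These lists too were chosen with earlier results of these data known, so their counts of calls are given as a description. In neutrophils 5 of the 35 tested were called (background 2.53%), 3 of them higher with CGRP and 2 lower, and the median log2 change was -0.06. In macrophages 2 of the 29 tested were called (background 7.43%), 1 higher and 1 lower, and the median was -0.20. By DESeq2 2 were called in each cell type. The calls in neutrophils were 1 higher and 1 lower of 7 genes of nucleotide release and ectoenzymes, 1 lower of 10 genes of adenosine uptake and metabolism, and 2 higher of 6 inflammasome genes. In macrophages 0 of 4 and 0 of 8 genes of the first and second list were called by limma-voom, edgeR or DESeq2, with 0 and 2 at an unadjusted p under 0.05. Of the 6 inflammasome genes, 1 was higher and 1 lower there. Of the 11 genes for G proteins and phospholipase C beta tested in each cell type, 0 were called by limma-voom, edgeR or DESeq2, with 2 in neutrophils and 1 in macrophages at an unadjusted p under 0.05.

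*Nt5e*, which encodes CD73, the enzyme that completes the step from AMP to adenosine, was counted 62, 75 and 75 times in the Neu_PBS libraries and 125, 164 and 94 times in the Neu_CGRP libraries. The level rose from 23.2 ± 3.71 CPM to 43.3 ± 4.15 CPM (log2 change 0.94, SE 0.16, limma-voom adjusted p = 1.40e-03). The groups did not overlap, as for 17.8% of the genes tested in neutrophils. In macrophages it was counted 1, 1 and 0 times with PBS and 11, 10 and 6 times with CGRP, below the filter of the macrophage fit. From the summed counts of 2 and 27, the level was 15.9-fold higher with CGRP, with an exact 95% interval of 4.01 to 138 for counting error only. The summed neutrophil markers were also higher in Mac_CGRP than in Mac_PBS, as were the summed monocyte and macrophage markers and the summed B cell markers. The part of neutrophils in the macrophage rise of *Nt5e* was not tested.

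*Nt5e* passed the filter of the fit over 12 libraries only through its counts in neutrophils, so that fit's value for macrophages rests on counts below the macrophage filter. In it the *Nt5e* effect in macrophages minus that in neutrophils was 2.54 on the log2 scale (SE 0.62, limma-voom adjusted p = 0.0250). That call was lost with DESeq2 (adjusted p = 0.112), after thinning to the smallest library (adjusted p = 0.161) and with a minimum of 10 counts in at least 1 library (adjusted p = 0.0603), and held in 6 of 9 other ways of fitting. It was also lost without any 1 of 11 of the 12 libraries, with adjusted p from 0.0525 to 0.152, and kept without Neu_PBS replicate 1 (adjusted p = 0.0429).

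*Slc17a9*, which encodes the transporter that loads ATP into vesicles, fell in neutrophils from 42.2 ± 2.50 CPM to 27.3 ± 5.32 CPM (log2 change -0.59, SE 0.16, limma-voom adjusted p = 0.0476). *Ada*, which encodes adenosine deaminase, fell in neutrophils from 27.1 ± 1.20 CPM to 15.6 ± 3.93 CPM (log2 change -0.76, SE 0.19, limma-voom adjusted p = 0.0372). For both genes the libraries of the groups did not overlap, as for 17.8% of the genes tested in neutrophils. Both calls were lost without Neu_PBS replicate 1, 2 or 3 and without Neu_CGRP replicate 1 or 3, with adjusted p from 0.0759 to 0.171 for *Slc17a9* and from 0.0749 to 0.138 for *Ada*. The *Slc17a9* call held in 4 of 10 and the *Ada* call in 7 of 10 other ways of fitting. In macrophages *Slc17a9* was below the filter, at 5 to 11 counts per library, and the *Ada* log2 change was -0.60 (SE 0.36, adjusted p = 0.402).

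The called inflammasome genes were those of cytokines and their protease, and the activity of the P2X7 channel was not measured. *Il1b*, the gene of interleukin-1 beta, was counted 269, 310 and 272 times with PBS and 593, 740 and 374 times with CGRP in neutrophils (log2 change 1.06, SE 0.11, limma-voom adjusted p = 3.22e-06). In macrophages *Il1b* was counted 12, 14 and 15 times with PBS and 198, 154 and 100 times with CGRP (log2 change 3.71, SE 0.29, limma-voom adjusted p = 6.41e-07). The difference between the effects, macrophages minus neutrophils, was 2.66 on the log2 scale (SE 0.31, limma-voom over 12 libraries, adjusted p = 1.26e-05). As for *Nt5e*, the part of the higher neutrophil marker sums in the macrophage rise of *Il1b* was not tested.

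*Il18*, the gene of interleukin-18, was counted 15, 12 and 15 times with PBS and 41, 31 and 33 times with CGRP in neutrophils (log2 change 1.37, SE 0.31, limma-voom adjusted p = 0.0160), a call that held in 7 of 9 other ways of fitting. It was lost after thinning to the smallest library (adjusted p = 0.0586), in the single fit over 12 libraries (adjusted p = 0.0859) and without Neu_PBS replicate 1 or 2 (adjusted p = 0.0875 and 0.137), and DESeq2 gave no adjusted p for it. In macrophages its groups overlapped (log2 change 0.18, SE 0.29, adjusted p = 0.799). *Casp1*, the gene of the protease that matures both cytokines, fell in macrophages from 123 ± 30.3 CPM to 75.9 ± 12.2 CPM (log2 change -0.66, SE 0.19, limma-voom adjusted p = 0.0397). That call held in 9 of 10 other ways of fitting, with an adjusted p of 0.0850 after thinning. It was lost without Mac_PBS replicate 1 or 2 (adjusted p = 0.170 and 0.116) and without Mac_CGRP replicate 2 or 3 (adjusted p = 0.151 and 0.164). In neutrophils the *Casp1* log2 change was -0.38 (SE 0.12, adjusted p = 0.135).

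**Figure D3:**
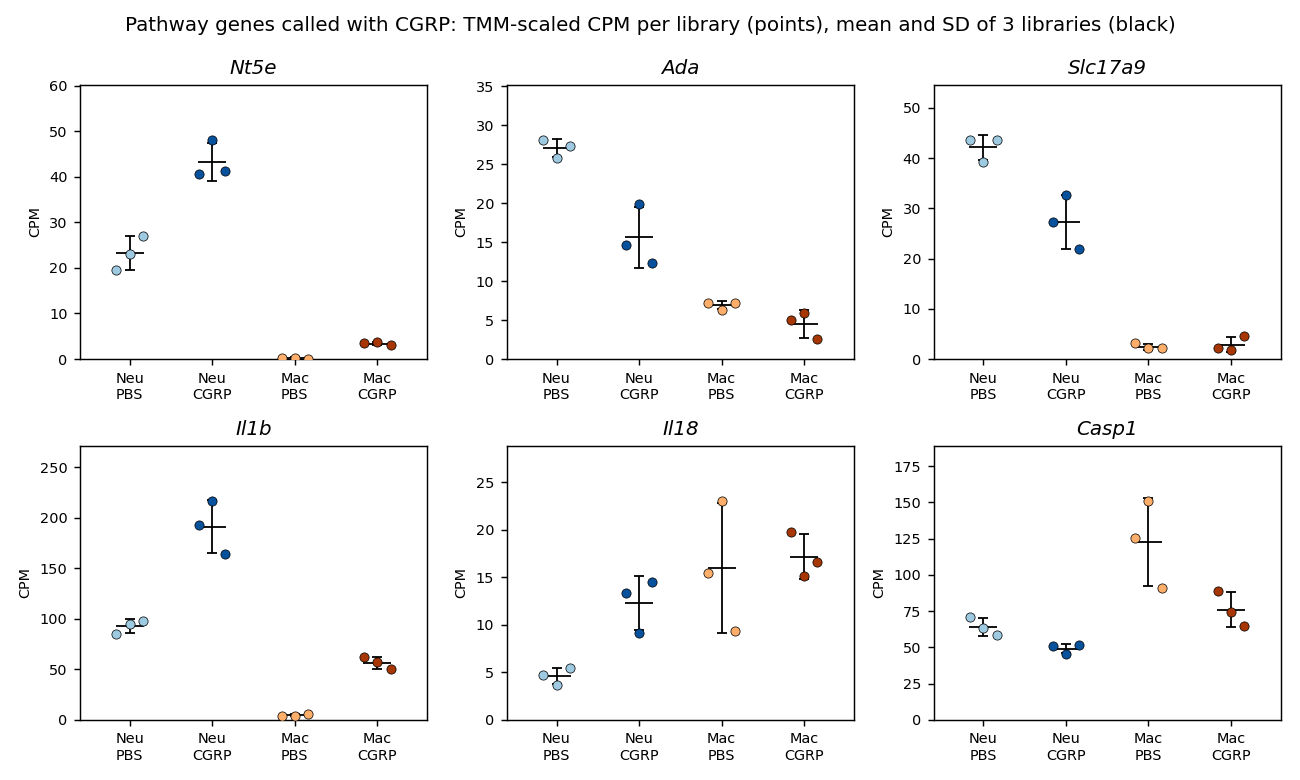
Level of the 6 surrounding genes that were called with CGRP, as TMM-scaled CPM per library on a linear axis from 0 that differs between panels, with points for libraries and black bars for the mean and SD of the 3 libraries of a group. *Nt5e* rises from 23.2 to 43.3 CPM on average in neutrophils and stays under 4 CPM in the macrophage libraries, and *Il1b* is highest in Neu_CGRP and lowest in Mac_PBS.

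**Figure D4:**
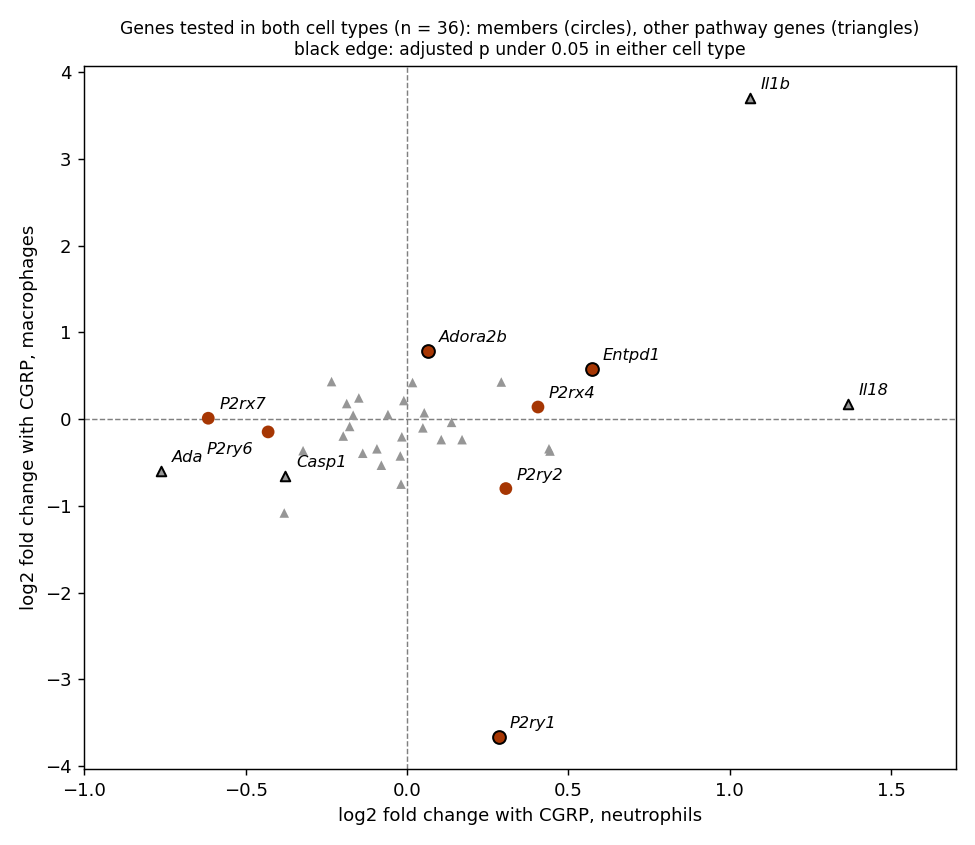
Log2 fold change with CGRP in neutrophils (horizontal axis) and in macrophages (vertical axis) for the 36 genes tested in both cell types, 7 of the 10 genes (circles) and 29 surrounding genes (triangles), with a black edge where the limma-voom adjusted p was under 0.05 in either. *P2ry1* lies far below the rest at 0.29 and -3.67, *Entpd1* at 0.57 and 0.58, and *Il1b* at 1.06 and 3.71. The macrophage value of *P2ry1* rests on 1 to 4 counts per Mac_CGRP library, so its size is uncertain.

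The genes whose levels most resembled those of *P2ry1* and *Entpd1* over the 12 libraries were found by Pearson's r of log2 CPM among 10694 genes, a description of libraries that share a cell type, a treatment and a depth. For *P2ry1*, the gene with the smallest adjusted p of the group in macrophages, they were *Specc1* (r = 0.952), *Plau* (r = 0.923) and *Tlr13* (r = 0.897). With CGRP the log2 change of *Plau*, the gene of urokinase, was -3.57 in macrophages (SE 0.52, limma-voom adjusted p = 3.11e-04) and -0.17 in neutrophils (adjusted p = 0.905). *Specc1* fell by 1.36 on the log2 scale in macrophages and *Tlr13*, a receptor for bacterial ribosomal RNA, by 1.24 (limma-voom adjusted p = 4.17e-04 and 7.99e-05). For *Entpd1*, the gene with the smallest adjusted p in neutrophils, they were *Antxr2* (r = 0.945), *Tgm2* (r = 0.912) and *Hif1a* (r = 0.910). *Tgm2*, the gene of transglutaminase 2, had a log2 change of 1.48 in neutrophils and 2.19 in macrophages (limma-voom adjusted p = 7.16e-08 and 1.75e-07), and *Hif1a*, the gene of a hypoxia-responsive factor, of 1.04 and 1.20 (adjusted p = 1.09e-05 and 8.39e-05). These genes were chosen for their likeness in the same libraries, so their fold changes are no further evidence for *P2ry1* or *Entpd1*.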

How the data were processed

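Indexed cDNA with unique molecular identifiers was made from the 3′ ends of transcripts with a dT primer. According to the study's methods and labels, the authors ran the nf-core RNA-seq pipeline with its UMI option, aligned reads to GRCm38 with STAR, counted them with featureCounts and deposited raw counts per gene, in 1 table per cell type. The annotation release and strand setting are not given in the sources used here.

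From these counts, limma 3.58.1 (voom) with TMM factors and filterByExpr from edgeR 4.0.16 was fitted to the 6 libraries of each cell type, after tests on simulated data. The difference between cell types came from 1 fit over the 12 libraries, with Benjamini-Hochberg adjustment over all genes tested and a threshold of 0.05. Intervals are 95% intervals, and those of count ratios are exact. Alternatives were the edgeR quasi-likelihood test, DESeq2 1.42.0, other scaling and filters, library weights, thinning, a replicate block, a single fit and leaving out each library. Gene positions came from GENCODE M21.

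The 10 genes and the surrounding lists were chosen with earlier results of these data known. All 10 were named, other receptors were named, and further listed genes were named where they were called. Total counts of 2002559 to 3631989 per library limit precision below about 10 counts.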

Additional observations from a re-analysis of the deposited data

Results flagged for a closer look

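For *P2ry1* and *Il1b* the effect of CGRP in macrophages differed from that in neutrophils by a test of the difference itself, in limma-voom over 12 libraries. The difference was -4.00 on the log2 scale for *P2ry1* (adjusted p = 1.80e-03), where counts were lower in each Mac_CGRP library than in each Mac_PBS library and overlapped in neutrophils. *P2ry1* passed the macrophage filter only through its PBS libraries and had 3, 1 and 4 counts with CGRP, so the size of its difference is uncertain. The difference was 2.66 for *Il1b* (adjusted p = 1.26e-05), which was higher in each library with CGRP than in each with PBS in both cell types. Among all genes tested, 17.8% in neutrophils and 24.1% in macrophages had groups that did not overlap. For *Nt5e* the same fit gave 2.54 (adjusted p = 0.0250), but the gene was below the macrophage filter, with 2 counts in Mac_PBS in all, and entered that fit only through the neutrophils. The *Nt5e* call was lost in 11 of 12 fits that left out 1 library (adjusted p from 0.0525 to 0.152), with DESeq2 (adjusted p = 0.112), after thinning (adjusted p = 0.161) and with a minimum of 10 counts in at least 1 library (adjusted p = 0.0603), so it is given as a value and not as a difference between the cell types. Groups of 3 libraries were too small for a test of outlying libraries.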

How the results depend on the processing

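The numbers of genes called were 248 in neutrophils, 698 in macrophages and 252 for the difference between them. They moved by more than 1.5 times with library quality weights, to 1406 in macrophages and 520 for the difference, and in a single fit over the 12 libraries, to 137 in neutrophils and 1050 in macrophages. DESeq2 called 187, 654 and 305, and edgeR 253, 735 and 290. Leaving out 1 library gave 138 to 234 calls in neutrophils (138 without Neu_PBS replicate 1 or 2 and 153 without Neu_CGRP replicate 2), 347 to 765 in macrophages (347 without Mac_PBS replicate 1, 348 without Mac_CGRP replicate 2 and 439 without Mac_CGRP replicate 3) and 149 to 328 for the difference (lowest without Mac_PBS replicate 1). Of the 10 genes described, it left 1 to 3 called in macrophages, and 1 without Mac_PBS replicate 1 or Mac_CGRP replicate 2 or 3. Without TMM scaling, 150 genes were higher and 64 lower in neutrophils, against 148 and 100 with it. In macrophages 245 were higher and 405 lower, against 325 and 373, and the difference was positive for 88 and negative for 154, against 129 and 123. Between the cell types with PBS, 3720 genes were higher in macrophages and 3441 lower, against 3472 and 3791, so the larger side changed.

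Several values near 0 changed sign. Without TMM scaling the log2 change of *P2rx7* in macrophages was -0.041. The difference between cell types for *Entpd1* was -0.10 without TMM scaling, -0.011 with no filter and -0.0020 with a minimum of 10 counts in at least 1 library. Leaving out 1 library gave -0.094 to 0.60 for *P2ry1* and -0.060 to 0.17 for *Adora2b* in neutrophils, -0.11 to 0.11 for *P2rx7* and -0.12 to 0.48 for *Il18* in macrophages, and -0.11 to 0.10 for *Entpd1* and -0.030 to 0.45 for *Ada* in the difference. The causes were not tested. The adjusted p of *Adora2b* in macrophages was 0.0721 without TMM scaling, 0.0811 with no filter and 0.0609 after thinning to the smallest library, and thinning called *Adora2b* lower in macrophages than in neutrophils with PBS (log2 change -0.71, adjusted p = 0.0151).

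Libraries with the same replicate number deviated from their group means with correlations of -0.012 to 0.14 in neutrophils and -0.179 to 0.273 in macrophages. For libraries with different numbers the correlations were -0.139 to 0.11 and -0.402 to 0.385. These ranges overlapped, and the libraries were not treated as pairs in the main fits. The labels do not give the origin of the replicates, and replicate 3 was the smallest library in each of the 4 groups, so a shared source of same-numbered libraries cannot be told from these data. With a replicate block 289, 1007 and 337 genes were called, against 248, 698 and 252 without it, and of the 10 genes 1, 3 and 1, as many as without it.

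Depth limits what can be said of genes under about 10 counts a library, such as *Adora2a*, *P2ry13* in macrophages and *P2ry14* in neutrophils.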
